A study of Homo sapiens with 7 samples.

Results

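The locus of the SP100 family on human chromosome 2, from 230980000 to 231460000 in hg19, holds the genes SP110, SP140, SP140L and SP100 in this order, and its members here are the VDR peaks that overlap it. There were 13 such peaks among the 85571 peaks of the 5 lists that reach the locus, and they merged into 8 sites. The locus was chosen by the folds and calls of its peaks in these same lists, so its folds and calls are given as a description, without a test. The peaks come from THP-1, an established human cell line of acute monocytic leukaemia, and record where the vitamin D receptor (VDR) was recovered on DNA. The assay was ChIPmentation, in which chromatin pulled down with an antibody against VDR is tagged for sequencing by a transposase. Cells had been kept for 8 h with 100 nM 1,25-dihydroxyvitamin D3 (1,25D, the receptor's ligand) or with the solvent, 0.1% ethanol (EtOH), in 3 libraries each. The list of 1,25D replicate 2 ends on chromosome 16, before chromosome 2 in its order, so every value below rests on 2 1,25D lists (replicates 1 and 3) and 3 EtOH lists. The labels do not say that replicates came from separate cultures, and the spread between lists may be technical. The input library was not analysed here.

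VDR is a nuclear receptor that binds DNA together with a retinoid X receptor, typically at a pair of hexamer half-sites spaced 3 bases apart, and that in monocytes turns on genes of innate immunity when 1,25D is bound. The SP100 family encodes nuclear proteins that read chromatin: they share an N-terminal domain through which they self-associate and a DNA-binding SAND domain, and longer forms add a PHD finger and a bromodomain. SP100 is a long-known constituent of PML nuclear bodies and restricts the expression of viral genomes. SP110 and SP140 are found mainly in leukocytes: inherited loss of SP110 causes an immunodeficiency with hepatic veno-occlusive disease, and SP140 acts as a repressor in macrophages. SP140L is a close relative of SP140 and SP100 whose function is less well known.

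The promoters of the 4 genes are shown because their likeness bears on which gene a read can be assigned to, and because they are the start regions of the locus whose letters were at hand. RefSeq (GRCh38.p14) lists 6 starts for the 4 genes, 2 each for SP110 and SP100 and 1 each for SP140 and SP140L, each with a window from 250 bases before to 50 after the start. The windows are printed 5′ to 3′ on the gene's strand, with the word AAGTGAAA or its reverse complement TTTCACTT in capitals. SP100 is the first of its starts, at chr2:230415951-230416250 of GRCh38.p14 on the plus strand. SP140L is at chr2:230326943-230327242 and SP140 at chr2:230225486-230225785, both on the plus strand.
SP100: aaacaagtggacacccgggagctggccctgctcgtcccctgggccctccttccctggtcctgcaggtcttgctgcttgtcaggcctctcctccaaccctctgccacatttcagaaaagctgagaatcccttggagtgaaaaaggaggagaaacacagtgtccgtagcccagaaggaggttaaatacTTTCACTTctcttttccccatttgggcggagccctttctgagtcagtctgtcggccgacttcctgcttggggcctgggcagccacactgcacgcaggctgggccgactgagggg
SP140L: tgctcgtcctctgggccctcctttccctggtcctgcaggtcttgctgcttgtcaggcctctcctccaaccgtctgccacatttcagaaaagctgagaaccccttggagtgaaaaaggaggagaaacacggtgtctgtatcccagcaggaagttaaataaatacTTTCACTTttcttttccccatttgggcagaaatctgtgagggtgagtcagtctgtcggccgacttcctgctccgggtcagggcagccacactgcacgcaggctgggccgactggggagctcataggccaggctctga
SP140: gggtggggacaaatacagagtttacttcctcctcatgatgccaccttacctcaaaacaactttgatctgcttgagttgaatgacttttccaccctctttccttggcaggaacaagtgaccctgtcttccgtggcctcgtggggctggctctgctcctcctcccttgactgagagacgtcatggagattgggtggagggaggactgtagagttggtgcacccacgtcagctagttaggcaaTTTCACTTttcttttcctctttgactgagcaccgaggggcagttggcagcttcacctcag
The SP100 and SP140L windows are near copies, with 251 identical bases among 272 aligned (92.3%), whereas no other pair of the 6 windows, aligned gene strand to gene strand, had more than 172 identical bases. SP110 and SP140 start head to head: the window of SP140 and the first window of SP110 overlap by 199 bases on opposite strands. The word AAGTGAAA was looked for after the sequences had been read. It contains the GAAA core that interferon regulatory factors bind, and SP100 and SP110 are known as interferon-induced genes. It was in 5 of the 6 windows, against 1.62% of 35116 RefSeq promoters, and the copy of SP140 is the same stretch of DNA as that of the first SP110 window. The windows of SP100 and SP140L are near copies too. As the word was chosen from these windows, the shares measure no enrichment, and binding of a factor to it was not tested. The leftmost base of the word lay at position -64 from the start for SP100, -87 for SP140L and -10 for SP140. The second SP100 window did not hold it. The VDR half-site pairs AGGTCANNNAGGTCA, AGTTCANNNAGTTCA and AGGTCANNNAGTTCA, searched on both strands with up to 2 mismatches, were in 0 of the 6 windows and in 2.38%, 1.91% and 1.83% of all promoters. These windows are of another genome build than the peaks, and no annotation of hg19 was used here. Whether a peak covers one of these starts, an exon or an intron was therefore not determined, and sites are named by their hg19 position. How the authors placed reads that match both SP100 and SP140L is not given in the sources used here.

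A single strong VDR site dominated the locus, and it was called with and without the hormone. It lay on chromosome 2 at 231281025 to 231282338. Its fold enrichment, the authors' ratio of the peak over the background, was 52.9 and 47.2 in 1,25D replicates 1 and 3, against 35.1, 33.2 and 30.8 in EtOH replicates 1, 2 and 3. Both 1,25D values lay above all 3 EtOH values. The authors' p-values were 6.12e-151 and 3.86e-133 in the 1,25D lists, against 5.01e-91, 6.79e-79 and 9.08e-78 in the EtOH lists. They describe the same peaks as the folds and are no separate support. How often p-values separate the groups over all sites was not counted.

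The site was among the strongest of every list. Over the part of the genome that the 5 lists all cover, its fold ranked 5 of 9434 peaks and 3 of 8620 peaks in 1,25D replicates 1 and 3, against 4 of 9249, 4 of 21369 and 4 of 10390 in EtOH replicates 1, 2 and 3. Its place near the top was thus alike with and without ligand. All 5 lists called 613 sites, 1.21% of the 50857 sites of the covered part. Of these 613 sites, 3, this one included, had a mean fold over the 5 lists of 39.9 or more.

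**Figure D1:**
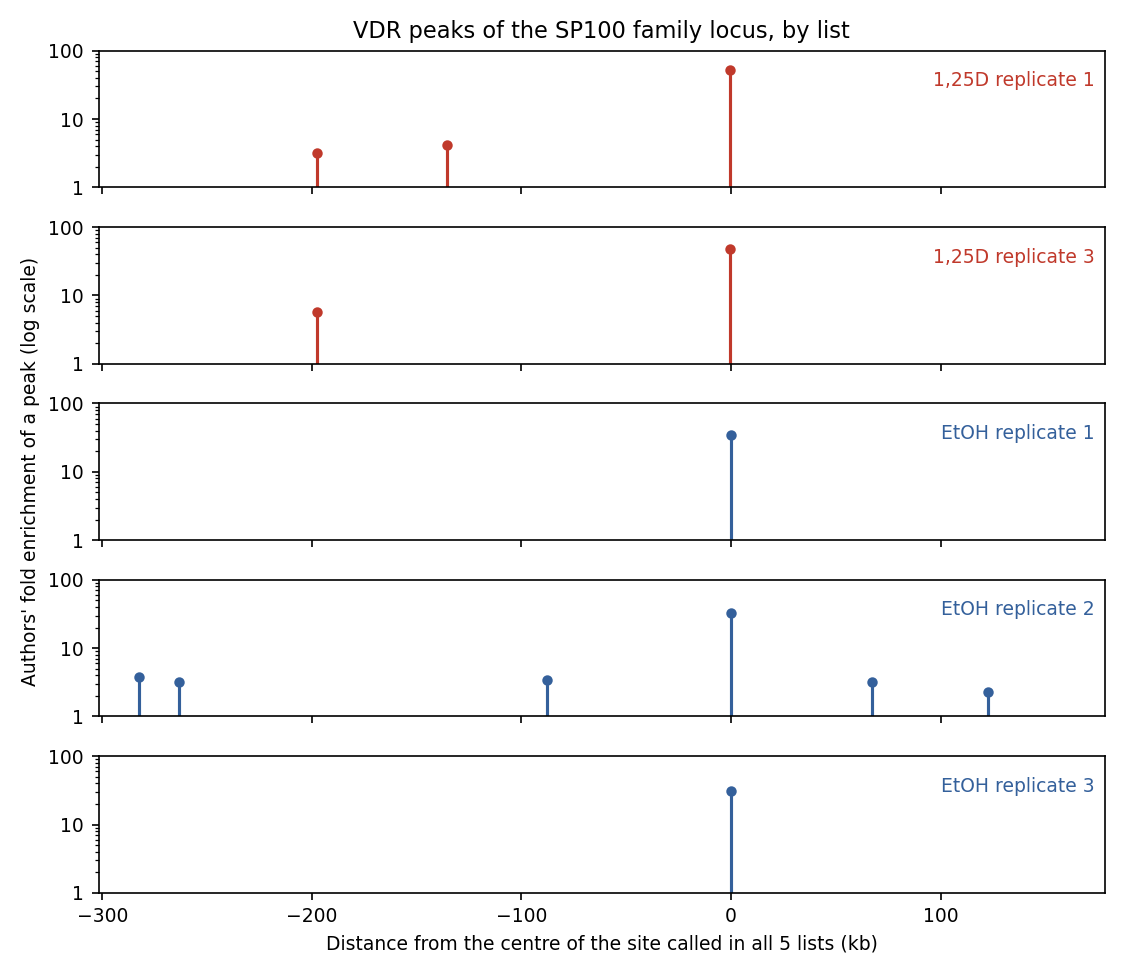
Authors' fold enrichment (log scale) of each VDR peak of the SP100 family locus against its distance in kb from the centre of the site called in all 5 lists, 1 panel per list (1,25D red, EtOH blue). The tall peak at 0 is in every list, with folds of 47.2 and 52.9 after 1,25D and 30.8 to 35.1 after EtOH, and all other peaks have folds of 5.76 or less.

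The mean fold at the strong site was 50.1 ± 4.0 after 1,25D (SD, n = 2) and 33.1 ± 2.15 after EtOH (SD, n = 3), a ratio of 1.51 or a log2 difference of 0.60. Between the lists of replicate 1, which share a lower limit on the p-value than the others, the ratio was 1.51, and between those of replicate 3 it was 1.53. A higher fold after 1,25D was the usual case among persistent sites: in 417 of the 613 sites called in all 5 lists (68%) every 1,25D fold was above every EtOH fold, and the reverse held in 1.47%. The median log2 ratio of the 613 sites was 0.69 (quartiles 0.29 and 1.18), and 55.3% of them had a higher ratio than the site of the locus. The locus shares this direction with most persistent sites.

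Folds come from separately called lists, and the direction at the site depended on how the lists were scaled. With each fold divided by its list's median over the 613 shared sites, the site stood at 5.82 and 4.59 times the median in 1,25D replicates 1 and 3, against 6.56, 5.90 and 5.64 times in EtOH replicates 1, 2 and 3. On that scale the log2 difference was -0.21 and the groups overlapped. The site was thus higher after 1,25D in the folds as listed, and not higher relative to the other persistent sites.

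**Figure D2:**
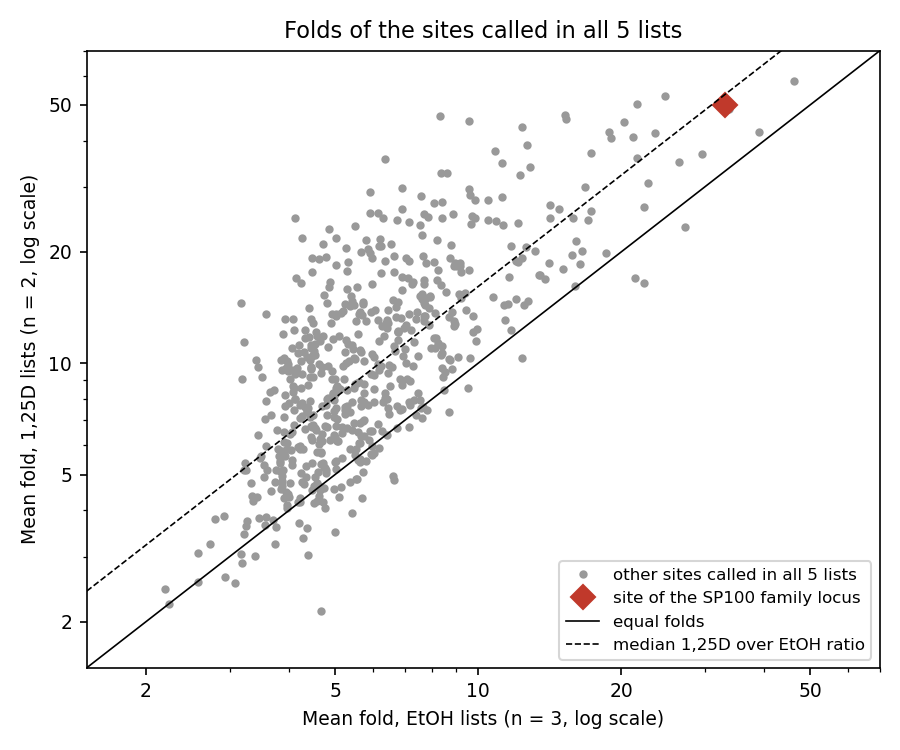
Mean authors' fold in the 2 1,25D lists against the mean in the 3 EtOH lists (both log scales) for the 613 sites called in all 5 lists, each a point, with the site of the SP100 family locus as a red diamond. The diamond, at 50.1 and 33.1, lies near the dashed line of the median ratio (log2 0.69) and above the solid line of equal folds.

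Some other sites that were strong without hormone had no higher fold with it. Of the 17 sites called in all 5 lists with a mean EtOH fold of 20 or more, a level chosen after the values were seen, 11 had every 1,25D fold above every EtOH fold and 3 the reverse. Their log2 ratios ran between -0.44 and 1.22 with a median of 0.43, beside 0.60 for the site of the locus, which is 1 of the 17. The 17 were picked by their EtOH folds, which are also compared here, and such a choice favours lower ratios. These counts and ratios therefore do not describe strong sites at large.

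The extent of the peak differed between treatments mainly on 1 side. Its start was at 231281025 and 231281050 in 1,25D replicates 1 and 3, against 231281066, 231281052 and 231281061 in EtOH replicates 1, 2 and 3, a range of 41 bp over all 5 lists. Its end was at 231281862 and 231281723 in the 1,25D lists, against 231282232, 231282039 and 231282338 in the EtOH lists, a range of 615 bp. The closest 1,25D and EtOH starts were 2 bp apart, and how often starts separate the groups over all sites was not counted, so no order is read from them. The EtOH peaks ended 177 to 476 bp beyond the last 1,25D end. Every EtOH end lay beyond every 1,25D end in 5.22% of the 613 sites. All 5 peaks had 657 bp in common, from 231281066 to 231281723.

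The EtOH peaks at this site were therefore the longer ones. The peak was 837 and 673 bp long in 1,25D replicates 1 and 3, against 1166, 987 and 1277 bp in EtOH replicates 1, 2 and 3. The means were 755 ± 116 bp after 1,25D (SD, n = 2) and 1143 ± 146 bp after EtOH (SD, n = 3). Within replicate 1 the 1,25D peak differed from the EtOH peak by -329 bp and within replicate 3 by -604 bp. The 1,25D peaks were thus shorter at higher folds as listed, but not at higher folds on the scale of the shared sites' medians.

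Set beside the other persistent sites, these lengths ran against the usual order. Among the 613 sites, every EtOH peak was longer than every 1,25D peak in 25 (4.08%), while every 1,25D peak was the longer in 257 (41.9%). The median difference of the mean lengths, 1,25D minus EtOH, was 126 bp over all 613 sites, against -388 bp here. A difference at or below that of this site was found in 12 of the 613 sites (1.96%). The starts of a site spread over a median of 222 bp and were at least as close as here in 6 sites (0.979%), and the ends spread over a median of 215 bp and were at least as far apart in 19 sites (3.10%), this site counted in each of these numbers. Among the 17 sites that were strongest after EtOH, every EtOH peak was the longer in 8 and every 1,25D peak in 1. Several of the 17 also had a larger difference than this site. At 1 of them, picked after the values were seen, the peaks were 640 and 699 bp after 1,25D, against 1362, 1489 and 1328 bp after EtOH. Neither this order of lengths nor a difference of this size was thus rare among the 17 sites. They were picked by their EtOH folds, and sites strong after 1,25D were not looked at as a set. The lists give no summit or profile, and what lies under the longer right side of the EtOH peaks was not tested.

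**Figure D3:**
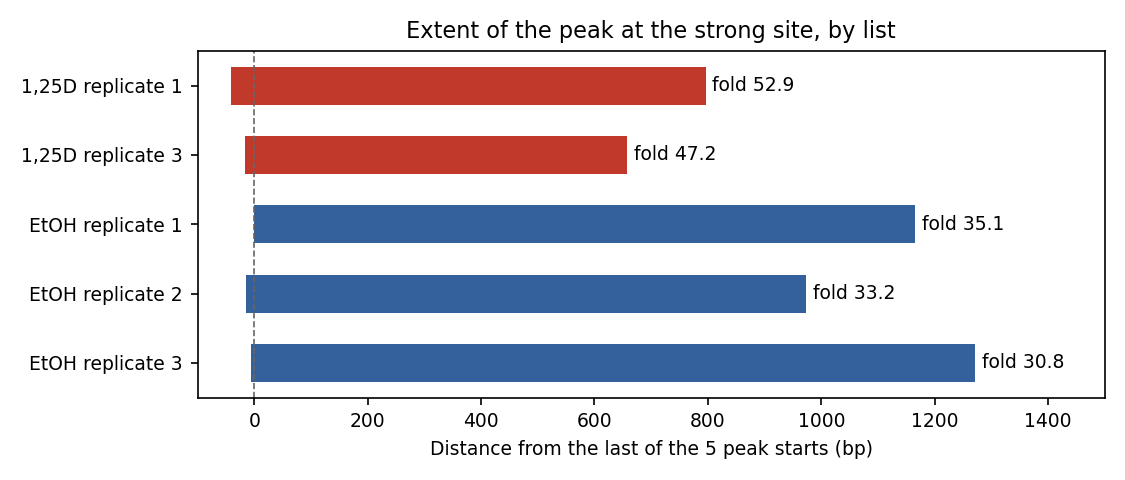
Extent of the peak at the strong site in each list as a horizontal bar, in bp from the last of the 5 peak starts, with the authors' fold printed beside it (1,25D red, EtOH blue). The left ends agree within 41 bp, and the 3 EtOH bars run 177 to 476 bp further right than the longer 1,25D bar.

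**Figure D4:**
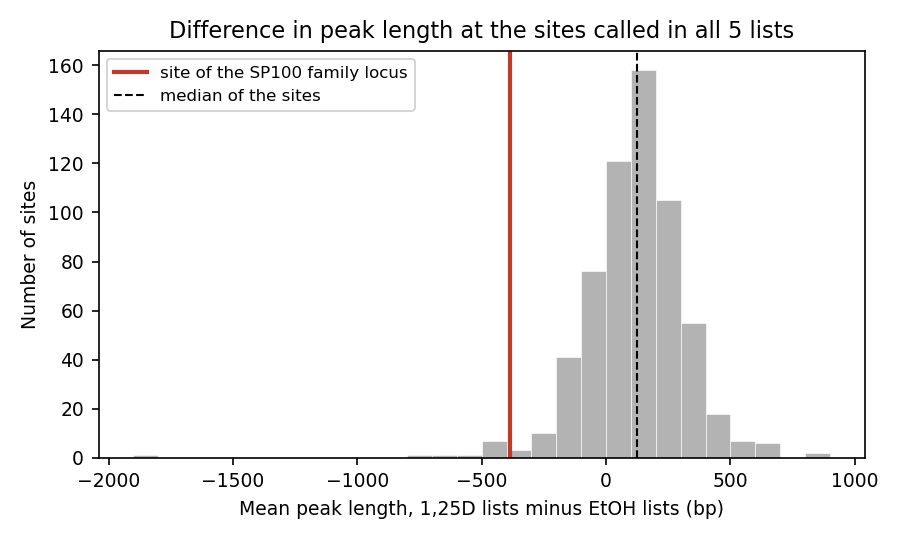
Number of sites called in all 5 lists (613 in total) by the difference in mean peak length, 1,25D lists minus EtOH lists, in bins of 100 bp. The site of the SP100 family locus (red line, -388 bp) lies left of the median (dashed line, 126 bp).

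Besides the strong site, a weaker site was called in both 1,25D lists and in no EtOH list. It lay on chromosome 2 at 231083945 to 231084316, before the strong site and 197.6 kb from it, centre to centre. Its fold was 3.18 in 1,25D replicate 1 and 5.76 in 1,25D replicate 3, with authors' p-values of 0.000315 and 1e-08. A peak missing from the EtOH lists shows that none passed the threshold of those lists and does not show that the receptor was missing. The peaks were 147 bp and 317 bp long, shared 93 bp and had centres 139 bp apart.

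This weaker site was typical of its kind. Sites called in both 1,25D lists and in no EtOH list made up 2.37% of all sites of the covered part, 1204 of 50857. The median of their mean folds was 4.68 (quartiles 3.95 and 5.81), beside 4.47 ± 1.82 here (SD, n = 2), and 42.5% of them had a lower mean fold. Within its lists the peak ranked 7484 of 9434 by fold in 1,25D replicate 1 and 1434 of 8620 in 1,25D replicate 3. The call in 2 lists thus rests on a peak from the upper part of one list and a peak from the lower part of the other. With peaks under a fold of 5 left out, the site was in 1,25D replicate 3 alone.

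The other 6 sites of the locus were each called in 1 list, 5 of them in EtOH replicate 2 and 1 in 1,25D replicate 1. Their folds ran between 2.30 and 4.21, and none reached 5. The 1,25D replicate 1 peak, at 231146207 to 231146354, had a fold of 4.21. The positions of these sites are given as a choice made after their values were seen: the EtOH replicate 2 peaks began at 230999103, 231018330, 231194030, 231348819 and 231403973, on both sides of the strong site. Of all sites in the covered part, 91.8% were likewise called in 1 list and 8.2% in 2 or more, beside 6 and 2 of the 8 sites of the locus.

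These weak peaks carried little detail of their own. Of the 8 peaks of the locus outside the strong site, 5 had exactly the length that is most frequent in their list (147 bp in 1,25D replicate 1 and 148 bp in EtOH replicate 2). That length was shared by 41.7% of the peaks of 1,25D replicate 1 and by 60.2% of those of EtOH replicate 2. Each of the 8 had the same fold and the same p-value, digit for digit, as 27 to 3756 other peaks of its list. Such ties were not particular to the locus: 1 such pair of values was held by 3757 of the 21369 covered peaks of EtOH replicate 2. The share of tied peaks over whole lists was not counted. The 5 peaks at the strong site shared their values with no other peak.

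The number of peaks in the locus was of the order of each list's mean. There were 3 and 2 peaks in 1,25D replicates 1 and 3, against 1, 6 and 1 in EtOH replicates 1, 2 and 3. The list means per 480 kb, the length of the locus, were 2.09 and 1.91 for the 1,25D lists and 2.05, 4.73 and 2.30 for the EtOH lists. EtOH replicate 2, which has the most peaks in the locus, is also the longest list, with 33820 peaks. With weaker peaks left out (fold under 5), the 1,25D lists had 1 and 2 peaks in the locus and the EtOH lists 1 each. Over the covered part, 16.9% and 21.8% of the peaks of 1,25D replicates 1 and 3 reached that fold. In EtOH replicates 1, 2 and 3 the shares were 5.64%, 2.78% and 3.99%, so the limit keeps more 1,25D peaks throughout.

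The surroundings held no comparable site. The stretch of 480 kb before the locus had 3 sites and the stretch of the same length after it had 9, each called in 1 list, with folds of at most 4.81 and 4.89. The nearest site called in 2 or more lists lay 493 kb before the locus, at 230486821 to 230487409. It was called in all 5 lists, with folds of 5.84 and 11.3 in 1,25D replicates 1 and 3, against 3.49, 5.05 and 3.75 in EtOH replicates 1, 2 and 3. After the locus the first such site was 508 kb away, at 231968042 to 231968332, with folds of 3.18 and 3.81 in 1,25D replicates 1 and 3, against 3.01 in EtOH replicate 3. Just inside the edges of the locus the outermost sites, 19.1 kb and 55.8 kb from an edge, had folds of 3.77 and 2.30 in EtOH replicate 2. Just outside, 3.3 kb before and 77.6 kb after, lay sites with folds of 3.36 in EtOH replicate 3 and 2.95 in EtOH replicate 2, so the edges cut through no strong site.

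In number of sites the locus was ordinary, with 8 sites beside a median of 10 (quartiles 5 and 14) over 4531 consecutive windows of 480 kb. A site called in all 5 lists was in 11.9% of the windows, and one called in both 1,25D lists and in no EtOH list in 20.3%. The locus had 1 of each, and windows with at least 1 of each made up 4.50%. The locus was chosen by its peaks and the windows were not, so this share does not say how unusual the locus is.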

How the data were processed

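Peaks had been called per library. The submitters' processing notes name Bowtie 1.1, the build hg19 (GRCh37) and MACS2 as tools, without their settings; the control used for calling is not given there. Per the file headers, each peak has the authors' fold enrichment, a ratio over the caller's background, and the authors' p-value, deposited without scaling between lists. The highest p-value was 0.00433 and 0.00431 in the lists of replicate 1 of 1,25D and EtOH and 0.0099 to 0.00997 in the other 3, so weak peaks are not equally listed. Read counts are not in the lists, so depth is unknown and no interval is given. Lists of 1,25D replicates 2 and 3 and EtOH replicate 3 stop in mid-line as used here, and the incomplete line was left out. Sites of the 5 lists were compared up to chromosome 5 at 90175161, in the order of the lists. That order goes by name, with chromosome 16 before chromosome 2. All 2-digit chromosomes are therefore covered, and those listed after chromosome 5, such as X, are not. Starts may count from 0 or from 1, which no header says. Positions are given as in the lists, and a length is end minus start.

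Peaks sharing at least 1 bp were merged into sites (Python 3.11.15, numpy 2.4.6), and a list's highest fold at a site was taken. Sites called in 2 or more lists were to be named in full, and those called in 1 list in full only at a fold of 5 or more, which none reached. No test was run, because the locus was chosen from these peaks, and 2 against 3 lists allow no two-sided exact permutation p below 0.1. The members and lists were chosen with earlier results of these data known. Merging was tested on 2000 simulated sites and found the 500 planted in all lists, the 500 in 1,25D only and the 500 in EtOH only. The simulated sites were far apart and the peaks of a site always overlapped. The test thus checked the code and did not cover neighbouring sites or peaks that barely meet. Promoters were aligned with biopython 1.88. A planned look at other genes of PML nuclear bodies and the SAND family needs an hg19 annotation and was not run. Columns of samples outside the series numbered 0.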

Additional observations from a re-analysis of the deposited data

How the results depend on the processing

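Over the alternative overlaps, fold and p limits, edges, scalings, left-out libraries and the replicate block, 70 of 79 recomputed values stayed within the spread between lists or within 1.5 times the count. That count is no measure of robustness, because many settings leave a single strong peak per list untouched. The log2 ratio and the length difference at the strong site were identical under the other overlaps and the fold and p limits. The log2 ratio of 0.60 at the strong site ran between 0.52 and 0.68 without 1 library and was 0.60 with the geometric mean. It was -0.21 with folds scaled by the median of the shared sites, a setting added after the data were seen. The length difference of -388 bp ran between -470 and -306 bp without 1 library. The site called in all 5 lists was 1 under every setting. The sites called in both 1,25D lists and in no EtOH list numbered 1 to 2 without 1 library (2 without 1,25D replicate 3, where 1 list suffices) and 0 at a fold of 5 or more. Sites in 2 or more lists came to 1 to 2 without 1 library (1 when either 1,25D library was left out) and 1 with that fold limit. With peaks under a fold of 5 left out, 1,25D replicate 1 and EtOH replicate 2 had 1 peak each in the locus, and with edges moved out by 50 kb EtOH replicate 3 had 2.

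Replicate numbers 1 and 3 reach the locus in both treatments, and the labels do not say that a number marks a shared culture or day. With these numbers taken as a replicate block, as values without a test, the mean log2 ratio was 0.60, the mean length difference -466.5 bp, and the counts of sites were 1, 1 and 2 (both 1,25D lists and no EtOH list, all lists, at least 2 lists). The share of persistent sites with every 1,25D fold above every EtOH fold was 67.9% to 78.5% without 1 library, and 73.1% at a fold of 5 or more. That with every EtOH peak longer was 6.47% to 13.6% without 1 library, where fewer lists have to be separate, and 2.74% when sites were merged by peak centres. Depth is unknown, so how much it limits the weak peaks was not tested.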
